A study of Mus musculus with 4 samples.

Results

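The 9 genes described here are the vitamin D receptor gene Vdr, the retinoid X receptor genes Rxra and Rxrb, the retinoic acid receptor genes Rara, Rarb and Rarg, the receptor corepressor gene Hr, and Cyp24a1 and Cyp26b1, whose enzymes break down vitamin D and retinoic acid. They were grouped by function, with earlier results of these data known, out of 21896 protein-coding genes with RefSeq bounds. They hold 313 of the 484555 regions in the authors' deposited table, counting every region that overlaps a gene or the 5 kb on either side of it (GRCm38). The data are whole-genome bisulfite libraries of hair matrix keratinocytes, the dividing epithelial cells of the hair bulb, taken from mice at postnatal day 4.5 and sorted as native or formaldehyde-fixed cells. The control group has 2 libraries with the genotype WT, and the other group has 2 libraries with the genotype Tet2/Tet3 DKO, Krt14-Cre, in which Cre is driven by the promoter of Krt14, a keratin of the basal layer of stratified epithelia. The labels leave out the sex of the mice, any Cre or floxed alleles of the WT mice, which libraries came from fixed cells, and whether the 2 libraries of a group are from different mice. Tet2 and Tet3 oxidise 5-methylcytosine, and the comparison asks how cytosine methylation differs without them.

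Every level below is the authors' mean over the libraries of a group, in percent of methylated reads, and bisulfite sequencing does not separate 5-methylcytosine from 5-hydroxymethylcytosine. Without levels for single libraries and with unknown depth, no difference below could be tested against the spread between replicates. A difference is the DKO mean minus the WT mean in percentage points, and a gain means here a region at least 20 points higher in the DKO. The DKO was taken as the second group from the order of names in the table's title, and each direction rests on that order. In the authors' deposited table no extreme statistic of a region lies between -4.02 and 1.53, and stretches without a listed region have no value. A negative statistic goes with a higher DKO mean in every region here, and a positive one with either direction. Of the 230 regions of these genes with a higher DKO mean, 103 have a negative statistic and 127 a positive one in the authors' deposited table, so a small positive difference of means is not a call by the authors. It holds no RNA, so the cell type named in the labels was not checked against the expression of markers. In the same measure of gained sequence that is used below, the median of 8 hair matrix marker genes was 9.79% of the window, and the medians for fibroblast, melanocyte, immune and endothelial markers were 1.77%, 2.67%, 2.87% and 2.56%. Krt85, also on the hair matrix list, was not matched. The lists overlapped. Hair matrix genes ran from 0% (Hoxc13 and Shh) to 21.9% (Dlx3), and the highest values of the other lists were 6.71%, 9.99%, 4.51% and 11.0%, in the same order. The medians do not identify the cells. The part of other cell types in the differences below was not tested.

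The receptors of this family are transcription factors that bind DNA in pairs. RXR proteins are the common partner, and pair with VDR to act on vitamin D target genes or with RAR proteins to act on retinoic acid target genes. Both kinds of pair bind repeats of a short core sequence, with 3 bases between the copies for VDR and RXR and commonly 5 for RAR and RXR. VDR, RXRA and the Hr protein, a corepressor that binds VDR, are each needed in skin for hair follicles to cycle, and retinoic acid receptors carry the effects of vitamin A on epithelial differentiation.

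Start sites of these genes lay in CG-dense and in CG-poor sequence, with different methylation levels. RefSeq promoter windows (GRCm38.p6, 250 bases before to 50 after a start) were held for 7 of the 9 genes, 13 windows in all. Of the 13 windows, 7 lay in a region under 10% in both groups (24.6% of 21262 windows of protein-coding genes did so), and 2, both of Rara, lay in part in a gained region (2.33% of all such windows). The sequences are printed 5′ to 3′ along the gene to show these kinds side by side. Capitals mark each CG, the site of methylation, except for Rarb, where they mark a binding repeat described below.

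Vdr, chr15:97908247-97908546, minus strand: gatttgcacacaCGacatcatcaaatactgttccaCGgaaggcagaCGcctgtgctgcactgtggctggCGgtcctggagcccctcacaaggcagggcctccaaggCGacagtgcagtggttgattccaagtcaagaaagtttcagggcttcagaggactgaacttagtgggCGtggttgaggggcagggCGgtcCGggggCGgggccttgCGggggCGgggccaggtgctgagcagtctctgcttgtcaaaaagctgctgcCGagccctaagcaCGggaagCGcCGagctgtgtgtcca

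Rxra, chr2:27676951-27677250, plus strand: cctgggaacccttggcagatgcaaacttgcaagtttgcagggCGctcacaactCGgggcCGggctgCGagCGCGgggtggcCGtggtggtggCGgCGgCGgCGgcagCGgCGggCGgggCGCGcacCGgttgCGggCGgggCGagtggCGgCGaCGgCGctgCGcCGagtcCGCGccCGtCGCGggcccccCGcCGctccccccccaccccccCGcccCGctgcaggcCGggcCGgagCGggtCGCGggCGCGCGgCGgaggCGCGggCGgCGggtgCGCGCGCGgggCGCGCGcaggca

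Rxra, second start, chr2:27709042-27709341, plus strand: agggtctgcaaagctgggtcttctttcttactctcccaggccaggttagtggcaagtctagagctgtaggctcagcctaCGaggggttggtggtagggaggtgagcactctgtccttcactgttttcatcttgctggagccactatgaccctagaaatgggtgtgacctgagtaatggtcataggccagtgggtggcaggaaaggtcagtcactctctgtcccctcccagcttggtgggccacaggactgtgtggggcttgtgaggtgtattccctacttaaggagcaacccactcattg

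Rara, chr11:98937446-98937745, plus strand: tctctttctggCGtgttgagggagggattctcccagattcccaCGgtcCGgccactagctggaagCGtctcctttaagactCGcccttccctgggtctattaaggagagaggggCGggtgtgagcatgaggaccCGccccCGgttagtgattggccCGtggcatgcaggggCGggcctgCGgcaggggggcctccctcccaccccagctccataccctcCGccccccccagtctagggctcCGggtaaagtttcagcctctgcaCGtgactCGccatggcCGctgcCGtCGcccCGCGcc

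Rara, later start, chr11:98939461-98939760, plus strand: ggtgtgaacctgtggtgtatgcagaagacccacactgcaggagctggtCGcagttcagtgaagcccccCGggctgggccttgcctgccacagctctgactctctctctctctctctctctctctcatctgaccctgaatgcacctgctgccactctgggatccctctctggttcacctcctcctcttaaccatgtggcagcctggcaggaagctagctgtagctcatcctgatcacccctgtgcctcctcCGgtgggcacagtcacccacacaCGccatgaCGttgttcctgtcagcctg

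Rara, last start, chr11:98964622-98964921, plus strand: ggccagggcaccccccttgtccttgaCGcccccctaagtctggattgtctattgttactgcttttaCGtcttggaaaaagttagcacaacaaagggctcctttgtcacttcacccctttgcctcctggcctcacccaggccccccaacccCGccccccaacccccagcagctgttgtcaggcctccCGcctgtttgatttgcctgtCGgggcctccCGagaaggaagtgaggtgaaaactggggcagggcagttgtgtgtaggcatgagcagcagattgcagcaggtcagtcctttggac

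Rarb, chr14:16575427-16575726, minus strand: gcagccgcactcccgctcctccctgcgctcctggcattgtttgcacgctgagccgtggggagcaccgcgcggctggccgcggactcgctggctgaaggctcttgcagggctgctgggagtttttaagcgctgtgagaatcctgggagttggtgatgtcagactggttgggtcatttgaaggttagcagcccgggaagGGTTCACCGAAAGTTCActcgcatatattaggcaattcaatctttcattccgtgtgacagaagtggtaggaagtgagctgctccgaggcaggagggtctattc

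The Vdr window holds 15 CG sites, the first Rxra window 55 and the first Rara window 20, against a median of 7 over 32851 RefSeq promoter windows. The region over the Vdr start (chr15:97907642-97908944) was at 3.30% in WT cells and 5.20% in DKO cells. The region over the first Rxra start (chr2:27676154-27679056) was at 3.53% and 3.72%, and the one over both neighbouring starts of Rara (chr11:98935975-98938896) at 3.08% and 4.73%. These CG-dense starts were near 0 in both groups, and their differences were smaller than the spread estimates of 3.33, 3.63 and 3.33 points that the authors' deposited table gives for them. Their extreme statistics there were 5.99, 4.47 and 5.43, so a difference under the spread estimate is not a call of no difference by the authors.

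The second Rxra window holds 1 CG, and the region that covers it (chr2:27709121-27709936) was at 82.6% in WT cells and 90.2% in DKO cells. The later Rara window holds 5 CG sites, and a region of 4 cytosine positions that begins at its start site (chr11:98939711-98939743) was at 17.5% and 52.7%. The last Rara window holds 6 CG sites, and the region that reaches 34 bases short of its start site (chr11:98964252-98964838) was at 17.0% and 46.9%. The difference was thus 35.2 points and 29.9 points beside 2 CG-poorer starts of Rara, whose first listed start was low in both groups. The region at the later start also lies in Gm46294, a predicted coding gene that overlaps Rara.

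The Rarb window contains a direct repeat, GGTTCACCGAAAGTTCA, which begins 53 bases before the start site (chr14:16575513-16575529). It is the only repeat with 5 bases between its copies in the 13 windows, and such a repeat was found in 32 of 32851 windows (0.0974%). The search took AGGTCA or AGTTCA or GGGTCA or GGTTCA as a copy, on both strands. The copies other than AGGTCA were added after the regions were seen, and the Rarb repeat is made of such added copies. Its low share over all windows therefore carries no weight as a test. The repeat holds 1 CG. The region over it (chr14:16575225-16576064, 114 positions) was at 2.49% in WT cells and 3.24% in DKO cells. The same search found no repeat with 3 bases between in the 13 windows and found 1 in 13 windows of all genes (0.0396%). The copy AGGTCA alone was in 3 of the 13 windows and in 16.3% of all windows. These are matches of letters and not measured binding.

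Over the whole windows, the starts included, 8 of the 9 genes held at least 1 gain, and Rxrb held none. By the same rule 64.4% of 21896 protein-coding genes held a gain, so that holding a gain is common. Of the 313 regions, 104 (33.2%) were gains, against 22.9% of all listed regions, and 230 (73.5%) were higher in the DKO by any amount, against 48.2%. The gains had a median WT level of 38.7%, with quartiles of 26.5% and 47.8%, and a median DKO level of 73.2%, with quartiles of 65.1% and 79.8%. All gains in the table had medians of 45.6% and 76.3%. The median difference was 33.1 points in these genes and 28.4 points over all gains. Rarb supplied 153 of the regions, and without it 63 of 160 (39.4%) were gains. Within these genes 91 gains lay inside the gene, 2 across a gene end and 11 in a flank. Exons and introns were not used here.

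**Figure D1:**
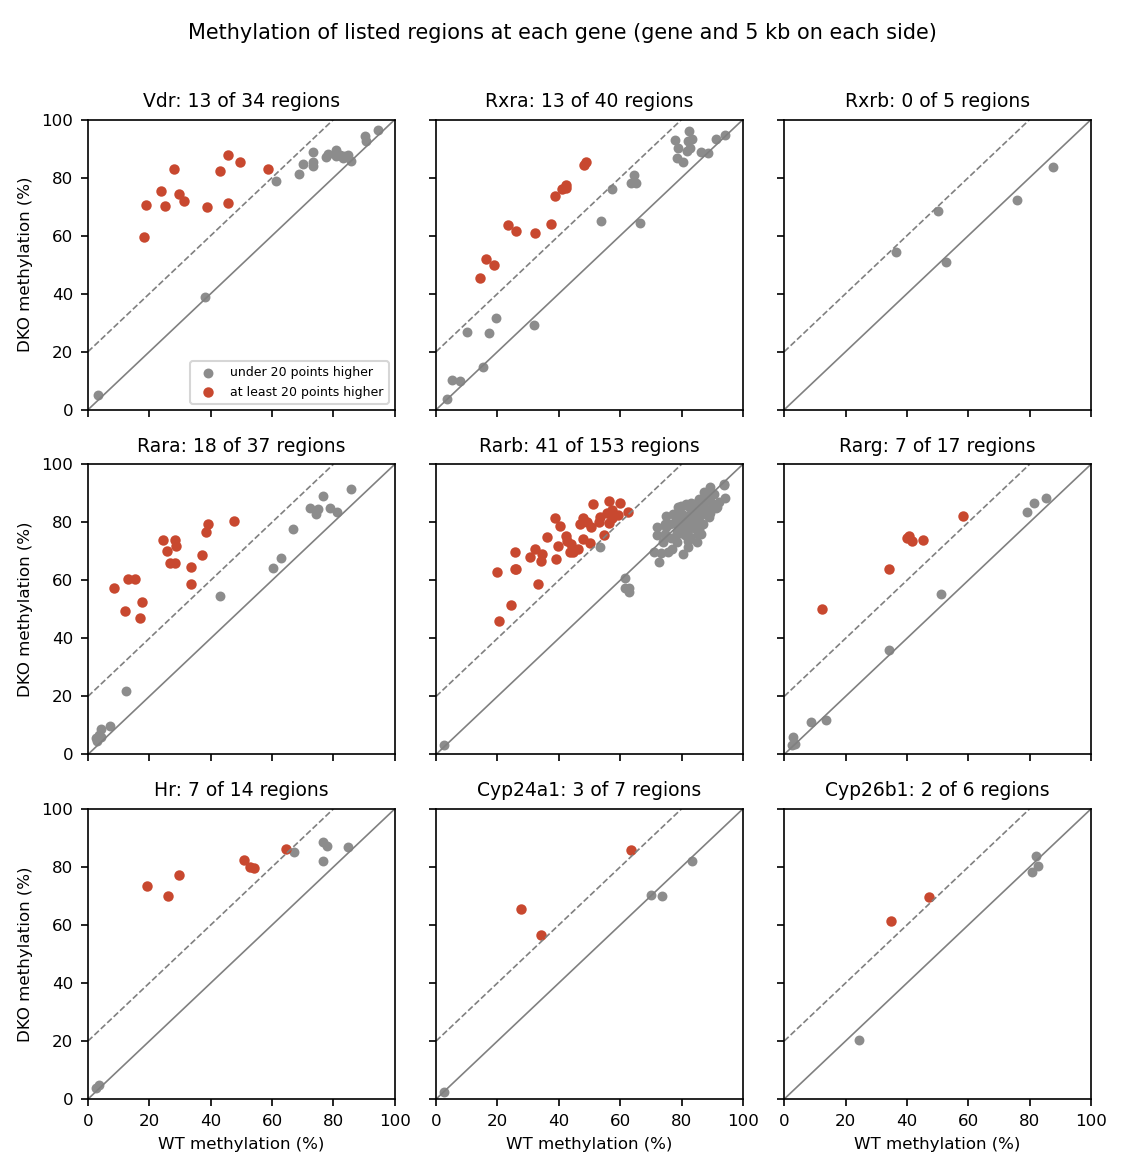
Methylation of each listed region in the WT (x axis, %) and the DKO (y axis, %), 1 panel for each gene. The solid line marks equal levels and the dashed line 20 points higher in the DKO, with gains in red. Gains occupy WT levels from 8.33% to 64.5%, and above 80% in the WT no point can reach the dashed line.

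Gains were counted by the WT level of the region. Of 20 regions under 10% in the WT, 1 was a gain, and their median difference was 1.88 points. The counts of gains were 13 of 19 regions from 10% to 20%, 43 of 48 from 20% to 40%, and 44 of 51 from 40% to 60%. They were 3 of 66 from 60% to 80%. The other 109 regions, above 80%, could not be gains by the definition, since a level cannot pass 100%. In these genes the shares over the 5 classes under 80% were thus 5%, 68.4%, 89.6%, 86.3% and 4.55%. Among all listed regions the shares over the same classes were 4.00%, 60.1%, 85.0%, 76.0% and 9.34%. The share of gains given above, 33.2% here against 22.9% of all listed regions, was not matched for WT level. In both sets the shares were highest from 20% to 60%. The bounds on the authors' statistic decide which regions are listed, so such shares do not describe all sequence at a given level.

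Vdr, the receptor of vitamin D, had the largest share of its window in gains of the 9 genes, with 11.4 kb of gained sequence, where the much longer Rarb had 16.5 kb. Gains covered 17.9% of the Vdr window, against a median of 1.29% and a 95th percentile of 9.86% over all genes, and 99.5% of genes lay lower. The window held 34 regions, and the DKO mean was higher in 34 of 34, of which 21 have a positive statistic in the authors' deposited table. Its 13 gains ran from 18.1% to 58.6% in the WT and from 59.4% to 87.9% in the DKO, so that the highest WT level lay just under the lowest DKO level. The 4 widest differences were all inside the gene. The first (chr15:97870771-97872470, 62 positions) was at 28.1% in WT cells and 82.8% in DKO cells. The second (chr15:97862733-97864854, 112 positions) was at 23.7% and 75.5%. The third (chr15:97875127-97875704) was at 18.9% and 70.6%, and the fourth (chr15:97899389-97901160), which lies 7136 bases inside from the start site, at 25.2% and 70.1%. Spread estimates for these 4 were 3.68, 3.33, 5.16 and 3.33 points in the authors' deposited table.

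Sequence next to the low Vdr start differed while the start itself hardly did. A region 958 bases upstream of the start site (chr15:97909254-97909772), and 310 bases from the edge of the low region, was at 18.1% in WT cells and 59.4% in DKO cells. No region of Vdr was lower in the DKO, and the smallest difference was 0.297 points. At the other end of the window, a region in the downstream flank (chr15:97847815-97849665, 60 positions) was at 38.2% and 38.8%. It is the 1 intermediate region of Vdr, between 20% and 60% in the WT, that was not a gain.

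The retinoic acid receptor genes differed among themselves. Rara, the most widely expressed of them in the body, had gains over 15.6% of its window, more than 99.1% of genes. Of its 18 gains, 4 lay in the flanks, and in the gene body alone gains covered 10.5%, a value not ranked among genes. All 37 of its regions were higher in the DKO, 19 of them with a positive statistic in the authors' deposited table. Rarg, the main RAR of epidermis, had gains over 8.75% (93.3% of genes lower), and Rarb, itself a known target gene of retinoic acid, over 2.50% (62.0% of genes lower). In Rara, 7 regions under 10% in both groups alternated with 18 gains, as the map of WT and DKO means along the genes shows. The widest difference (chr11:98933955-98934608) lay 3088 bases upstream of the first listed start, still inside the RefSeq bounds of the gene. It was at 24.4% in WT cells and 73.7% in DKO cells. The next (chr11:98943140-98943492) was at 8.33% and 57.3%, the 1 gain of the family that began under 10%. A pair of regions followed in size, chr11:98944386-98944569 at 13.2% and 60.6%, and chr11:98969924-98970704 at 28.4% and 73.8%. The Rara gain farthest upstream also lies in Cdc6, a DNA replication gene, and was at 25.7% and 70.0%. The one farthest downstream (chr11:98979093-98979965) also lies in another gene, Gjd3, and was at 38.3% and 76.8%.

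**Figure D2:**
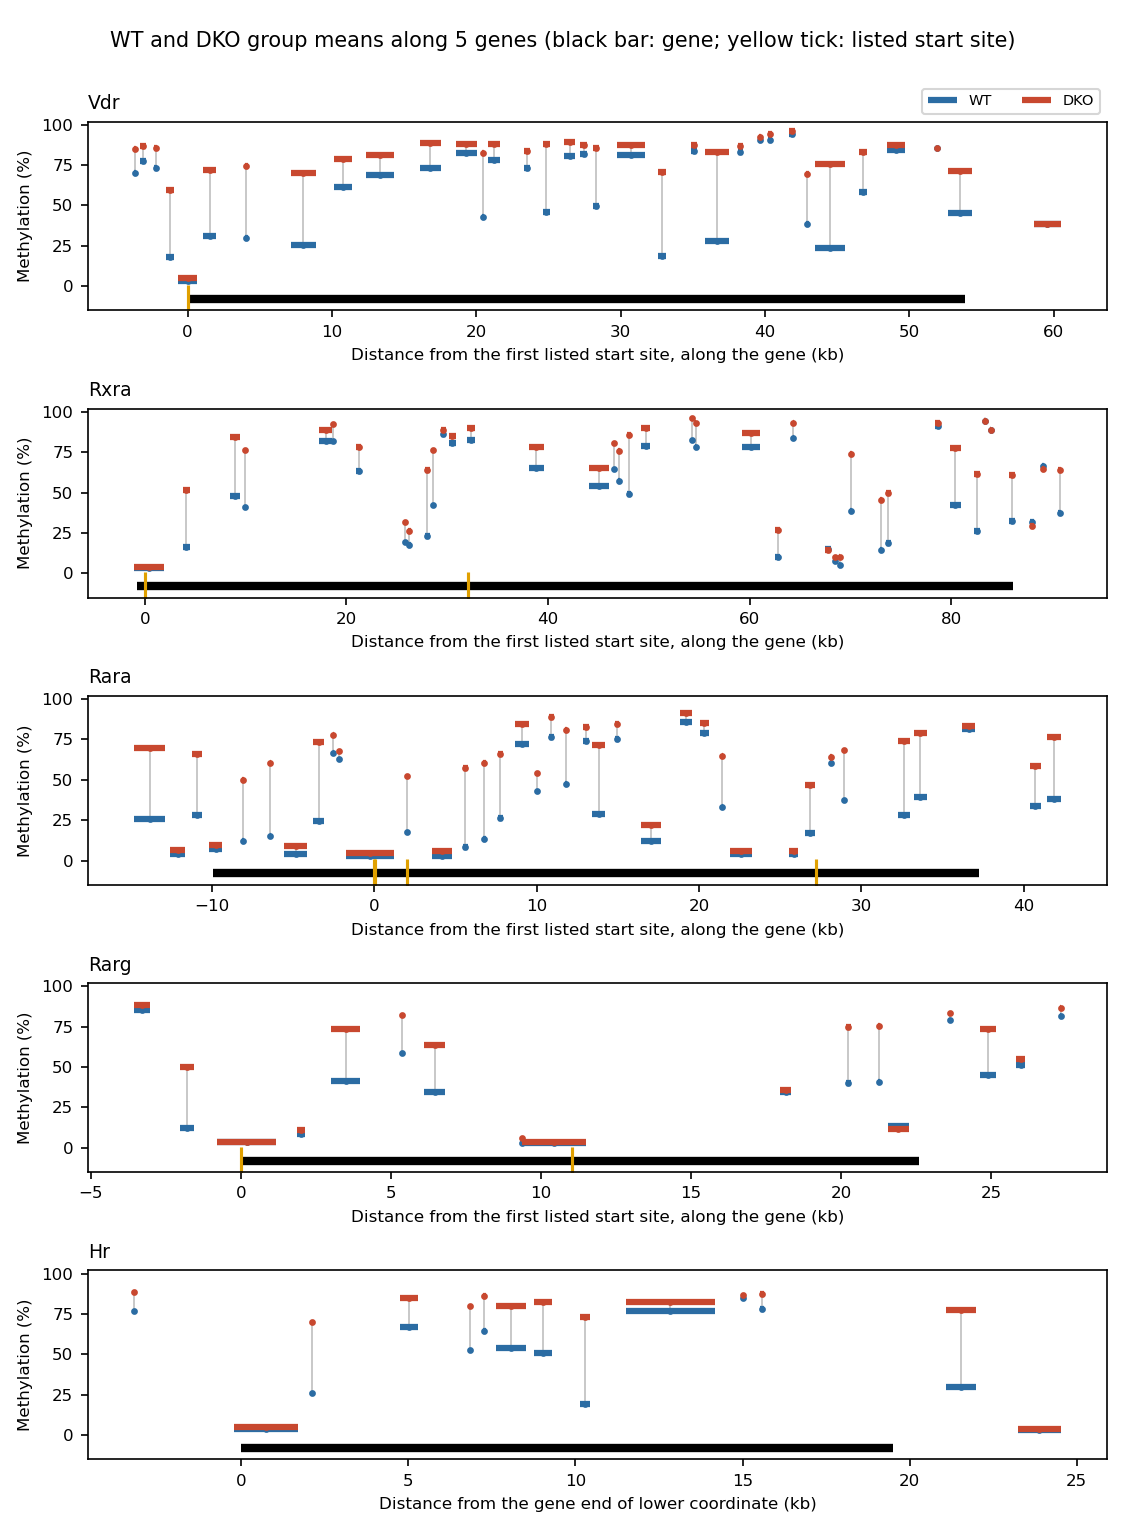
WT (blue) and DKO (red) group means of each listed region along 5 genes, against distance in kb, with methylation in percent on the y axis. Bars span the region, dots mark its centre and grey lines join the pair. At the first listed starts of Vdr and Rara the means stay at 5.20% or less, and gains stand on either side of them.

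Rarg has 2 listed starts, and both lay in low regions. The region over the first (chr15:102256356-102258306) was at 3.60% in WT cells and 3.57% in DKO cells, and that over the second (chr15:102246021-102248162) at 2.66% and 3.33%. Its gain with the largest difference was nearest to a start, 1555 bases upstream of the first (chr15:102259077-102259540), at 12.3% and 50.3%. Inside the gene, chr15:102237199-102237360 was at 39.9% and 74.6%, chr15:102236237-102236280 at 40.8% and 75.2%, and chr15:102253535-102254511 at 41.6% and 73.6%. The largest loss in Rarg was 1.79 points, from 13.7% to 11.9% at chr15:102235257-102235968.

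Rarb spans 651 kb, and the stretches on the 2 sides of its listed start differed in their counts. Of 51 regions downstream of the listed start, in 145 kb of gene, 21 (41.2%) were gains and 10 (19.6%) were lower in the DKO. Of 101 regions in the 507 kb of gene on the other side, still within the RefSeq bounds, 20 (19.8%) were gains and 59 (58.4%) were lower. Over all listed regions 22.9% were gains and 48.2% were higher in the DKO, so the share of gains on that other side was near the share over all regions. The median difference was 3.21 points on the first side and -0.981 points on the second. Of the 41 gains of Rarb, 17 had 4 positions or fewer, which limits this contrast. The 3 gains with the largest differences lay 61.4 to 66.4 kb downstream of the start. They were chr14:16513560-16514099 at 25.8% in WT cells and 69.9% in DKO cells, chr14:16508511-16509066 at 38.7% and 81.6%, and chr14:16509637-16510722 at 19.9% and 62.8%. The fourth (chr14:16634559-16634841), on the other side, was at 36.0% and 74.9%. The gain nearest to the start lay 4076 bases upstream (chr14:16579552-16579966) at 56.4% and 87.2%.

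Losses of at least 10 points were found in Rarb alone among the 9 genes. There were 4 of them, all upstream of the listed start and each of 2 to 5 positions, and 8.49% of all genes held such a loss (2.54% of all listed regions were such losses, and 1.28% of the 313 here). The largest (chr14:16843449-16843654) was at 85.0% in WT cells and 73.1% in DKO cells.

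**Figure D3:**
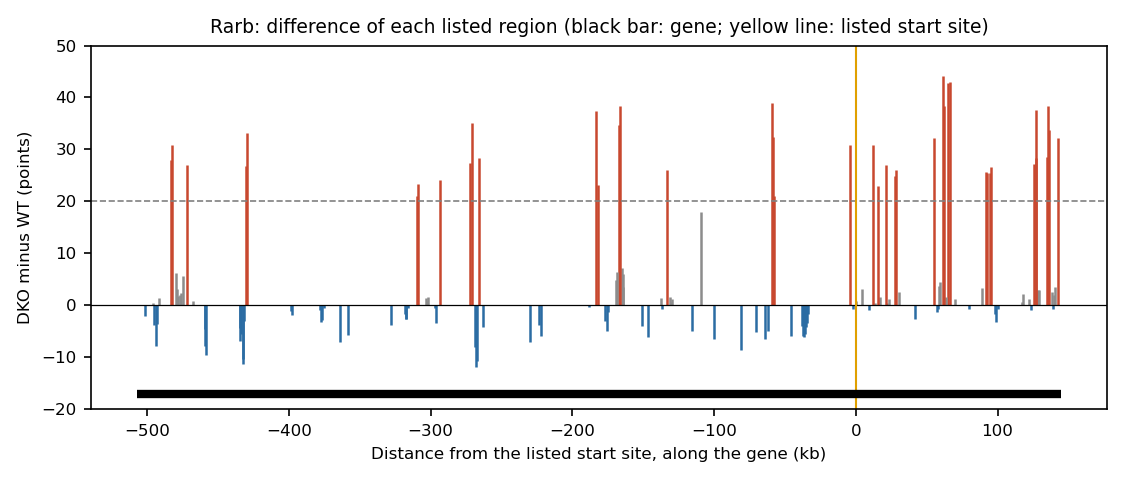
Difference of each listed region of Rarb, in points (DKO minus WT), against distance from the listed start site along the gene in kb. Red lines are gains, blue lines are lower in the DKO and grey lines are in between. Most blue lines stand upstream of the start, where 59 of 101 regions were lower.

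Rxra and Rxrb, whose products are shared partners, differed in how much gained sequence they held. Rxra had 40 regions, of which 37 were higher and 13 were gains, covering 6.31% of its window (86.0% of genes lower). Its gains measured 26.5 to 40.5 points, where those of Vdr measured 24.2 to 54.7 points. The gain with the largest difference (chr2:27704988-27705481), 3811 bases before the second start, was at 23.3% in WT cells and 63.8% in DKO cells. A pair of regions of higher WT level, chr2:27725008-27725446 and chr2:27685678-27686663, were at 48.9% and 48.1% in the WT and at 85.4% and 84.3% in the DKO. The gain closest to the first start (chr2:27680940-27681680, 3739 bases inside) was at 16.3% and 51.9%, and the one closest to the second (chr2:27705802-27705803, 2 positions) at 42.5% and 76.5%. The largest loss was from 31.8% to 29.2%, in the downstream flank (chr2:27765081-27765444).

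Rxrb, a short gene of 6.59 kb, had 5 regions and no gain. A pair came close to the limit of 20 points. One inside the gene (chr17:34033004-34033329) was at 50.03% in WT cells and 68.4% in DKO cells, and one across the gene end (chr17:34038217-34038432) at 36.5% and 54.3%. The other 3 regions were lower in the DKO, and 2 of these lie in the neighbouring collagen gene Col11a2. The largest loss (chr17:34043227-34043433), in Col11a2, was from 87.7% to 83.6%. No listed region overlapped its 2 promoter windows, which hold 37 and 47 CG sites.

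Hr, which encodes the corepressor lost in hairless mice, had 14 regions, all of them higher in the DKO, 11 with a positive statistic in the authors' deposited table. Of the 6 genes of the family with at least 10 regions, Vdr, Rara and Hr were higher in every region, and 2.88% of 7783 genes with as many regions were so. Gains covered 9.21% of the Hr window (94.03% of genes lower). The region across the gene end of lower coordinate (chr14:70553846-70555754, 212 positions) was at 3.45% and 4.80%. Inside the gene, chr14:70564183-70564492 was at 19.3% in WT cells and 73.3% in DKO cells, the second widest difference of the family after that in Vdr. A flanking region 1601 bases beyond the other end (chr14:70575149-70576039) was at 29.7% and 77.2%, and a region of 2 positions inside the gene (chr14:70556175-70556176) at 26.2% and 69.9%. The other 4 gains, from 50.9% to 64.5% in the WT, lie side by side. The largest difference among them was at chr14:70562819-70563357, with 50.9% and 82.2%. In the authors' deposited table these 4 have a positive statistic and the other 100 gains of the family a negative one, and 0.169% of all gains have a positive one. Without them gains cover 4.08% of the Hr window.

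**Figure D4:**
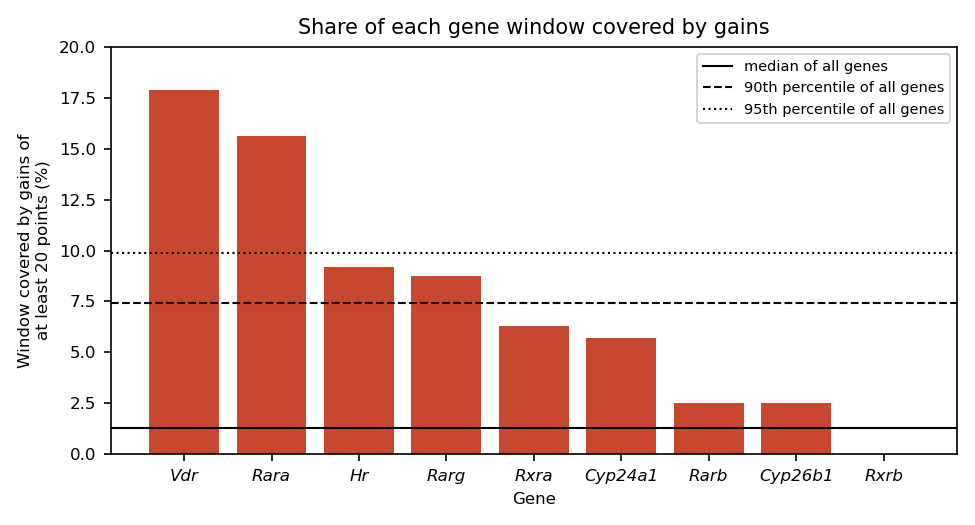
Percent of each gene window (gene and 5 kb on either side) covered by gains, 1 bar a gene. Lines mark the median (1.29%), the 90th percentile (7.40%) and the 95th percentile (9.86%) of all genes. Vdr and Rara stand above the highest line, Hr and Rarg above the middle one, and Rxrb has no bar because it held no gain.

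The catabolic enzymes held few regions. Cyp24a1, the enzyme that inactivates vitamin D and a strong target of VDR, had 7 regions and 3 gains over 5.68% of its window (83.4% of genes lower). The gain with the largest difference (chr2:170488431-170489229), inside the gene, was at 27.7% in WT cells and 65.4% in DKO cells. Another inside the gene (chr2:170485924-170486291) was at 63.6% and 85.9%, and one in the flank of lower coordinate (chr2:170479482-170479689) at 34.3% and 56.6%. The region across its end of higher coordinate (chr2:170496978-170497392), which also lies in Pfdn4, was at 2.58% and 2.44%. The largest loss was from 73.6% to 69.9% (chr2:170501154-170501560), also in Pfdn4, which encodes a chaperone subunit.

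Cyp26b1, which clears retinoic acid, had 6 regions and 2 gains over 2.50% of its window (62.0% of genes lower). One gain was inside the gene (chr6:84572613-84572900), at 47.1% in WT cells and 69.8% in DKO cells, and the other in the downstream flank (chr6:84566241-84566936), at 34.9% and 61.4%. The 3 regions nearest to the start were lower in the DKO, the largest loss being from 24.3% to 20.2% inside the gene (chr6:84590669-84590942). Cyp26b1 lies 1.11 Mb from Tet3 on chromosome 6, and the part of sequence linked to the deleted Tet3 alleles in these values was not tested.

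Over the family, the median coverage was 6.31% (range 0 to 17.9) against 1.29% for all genes, 8 of 9 genes lay above that median and 4 lay above the 90th percentile of 7.40%. A feature that the choice of genes did not use was nearness to unmethylated sequence. Of the 104 gains, 18 (17.3%) lay within 2 kb of a region under 10% in both groups, where 6.54% of all gains did. All gains include those outside gene windows, and no share over gains in gene windows alone was taken. This measure was added after the regions were seen. Rara held 10 of these 18, and without it the share was 8 of 86 (9.30%). Vdr, Rxra, Rarg and Hr had 2 each and Rarb had none. Gains here had a median width of 412 bp and 12.5 positions, against 345 bp and 11 over all gains. Spread estimates for the 104 gains ran from 3.31 to 5.26 points in the authors' deposited table, and the smallest ratio of a gain to its own estimate was 4.93. Gains are at least 20 points by definition, so a high ratio follows from the choice of regions and is no measure of certainty. The sources used here do not say how the spread estimate was made from the libraries.

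Lists of other genes of the pathways had lower medians than the family. A gain was held by 64.4% of all protein-coding genes, and the counts for these lists are to be read beside that share. Of 16 genes that supply, carry or clear retinoids, 12 held a gain, with a median coverage of 2.02%. Aldh1a3, which makes retinoic acid, led at 11.5%, followed by the fatty acid and retinoid carrier Fabp5 at 9.25%, while Lrat, Rbp4, Crabp2 and Cyp26c1 had none. Of 8 genes of vitamin D supply and uptake, 7 held a gain (median 1.66%), led by Dhcr7, which draws on the same sterol precursor as vitamin D, at 12.1%. Cyp27b1, the activating enzyme, was at 3.56%, and Gc, the carrier in blood, had none. Of 12 coregulators, 11 held a gain (median 2.14%), led by Nrip1 at 8.22%, and Med1 had none.

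The medians of other nuclear receptors were lower again. Of 13 further genes listed as partners of RXR, 9 held a gain, with a median of 1.16%. That list also holds Rxrg, itself an RXR gene, at 1.39%. Of 29 remaining nuclear receptors 19 held a gain, with a median of 0.999%. Both medians lay under that of all genes, of which 64.4% held a gain. The 3 receptors of these lists with a coverage nearest to that of Vdr were the fatty acid receptor Ppard at 12.9% (16 gains), the thyroid hormone receptor Thra at 10.7% (7 gains) and the clock repressor Nr1d1 at 8.23% (2 gains), each lower than Vdr by 4.96 to 9.64 percent of window. This likeness is in 1 measure of group means and covers no samples. Losses of at least 10 points were held by 1 retinoid gene, 1 vitamin D gene and 6 of the 29 other receptors, and by none of the coregulators or RXR partners. Such a loss was held by 8.49% of all genes. Not every list lay under the family, since the hair matrix markers given earlier had a median coverage of 9.79%, from 0% to 21.9%.

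**Figure D5:**
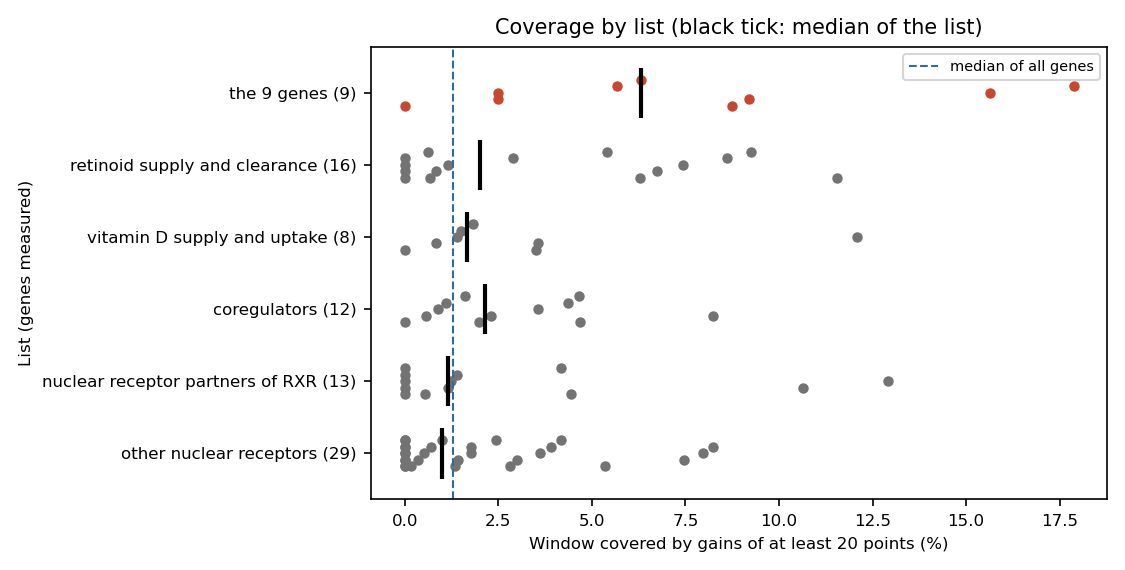
Percent of window covered by gains for each gene of the family (red) and of 5 lists of related genes (grey), with the number of genes in brackets. Black ticks mark the medians and the dashed line the median of all genes. The family's median of 6.31% lies to the right of the medians of these 5 lists, which run from 0.999% to 2.14%. The hair matrix list, with a median of 9.79%, is not drawn.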

How the data were processed

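Bisulfite reads of 2 WT and 2 DKO libraries went through Trim Galore and Bismark, on GRCm38 (mm10), which the submitters' processing notes name. The sources used here do not give the region caller, smoothing or thresholds. The authors' deposited table gives, per the file headers, a mean methylation level of each group as a fraction (printed here as percent), a spread estimate on the same fraction scale, and a statistic used here as a score without units. Positions are cytosine positions and not CG sites, and 89.2% of all listed regions with 2 positions span 2 bp, the length of a single CG. With no p-values, read counts or single-library values in it, no interval or test was possible. Groups follow the labels' titles.

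Regions were assigned to genes with RefSeq gene bounds (GRCm38.p6) plus 5 kb on either side, by an overlap of at least 1 base. Coverage is the percent of that window that gains take up. Thresholds were 20 points for a gain, 10 points for a loss, and 10% for a low region. All 9 genes are named. Where a gene had more than 6 gains, the 4 with the largest difference and the nearest to a start were given. The largest loss and regions over a promoter window were given too. Others were chosen after their values were seen, such as the group of 4 in Hr and the low region across an end of Hr and of Cyp24a1. So were the flat Vdr region and the Rara gains in Cdc6 and Gjd3. From the pathway lists, up to 3 of the highest and those at 0 could be named, and some are not reported here. The genes, lists and measures were chosen with earlier results of these data known, and nearness to low regions, the motif copies beyond AGGTCA and the sign of the statistic were added after the regions were seen. Promoter sequences are RefSeq's; windows were matched by symbol for 7 of 9 genes. Overlap and coverage functions were tested on simulated data. Python 3.11.15, numpy 2.4.6, pandas 2.3.3 and matplotlib 3.10.9 were used.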

Additional observations from a re-analysis of the deposited data

How the results depend on the processing

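With a minimum of 30 points, 66 regions in place of 104 were gains and 7 genes in place of 8 held one, since the gains of Cyp26b1 are smaller. With at least 10 positions per region, 64 gains and 0 losses of 10 points were left, by the removal of short regions. A minimum of 10 points, gene bodies alone, windows of 10 kb, region centres, merging within 500 bp (85 gains), and gains of one sign of the statistic (100 gains) kept the counts of genes and gains within 1.5 times of those reported. That sign, the losses in other windows and the coverage by region centres were added after the data were seen. The median coverage ran from 5.05% (30 points) to 8.75% (10 points). Shares over all genes and all regions are not given for these other settings. How the family stands beside all genes is thus known only for the main setting. Of 63 coverages of single genes under these settings, 9 moved by more than 1.5 times or from or to 0, namely at 10 points Rxra (11.99%) and Rxrb (3.27%), at 30 points Rarg (5.05%), Hr (5.91%), Cyp24a1 (3.30%) and Cyp26b1 (0%), Cyp26b1 also with 10 positions (1.61%) and the gene body alone (1.28%), and Hr with one sign (4.08%). No paired analysis was possible because the table holds group means and no values per library, and leaving out a library could not be run for the same reason. The depth is unknown, so short regions of 2 to 4 positions are the least certain values.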
